A study of Homo sapiens with 32 samples.

Results

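The regions described here are the m6A peaks on human chromosome 8, found in 2 kidney cell lines with and without the histone methyltransferase SETD2. They were taken as every peak that the deposited lists place on chromosome 8, 18254 of the 474004 peaks in 16 lists (3.85%), of which 10468 were in 786-O lists and 7786 in RPTEC lists. The chromosome was selected on measured values: in 786-O its share of the peaks was higher in SETD2KO than in SETD2-expressing lists. That contrast is therefore given as a description with no test, and RPTEC, which did not serve for the choice, was tested.

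m6A was mapped by MeRIP-seq, in which fragmented RNA is immunoprecipitated with an antibody against N6-methyladenosine (IP) and compared with the unselected RNA (Input). 786-O is an established line of clear cell renal cell carcinoma, and RPTEC is a telomerase-immortalized renal proximal tubule line that stood in for normal epithelium. In each, 4 lines were profiled with 2 IP libraries per line: the WT parent, the CRISPR/Cas9 knockout clones SETD2KO-1 and SETD2KO-2, and SETD2KO-1R, a clone derived from SETD2KO-1 after a full-length FLAG-tagged SETD2 transgene was added. All lines were otherwise untreated, each cell line was grown in its own medium, and every knockout and rescue line is 1 clone. Some of the lists carry further clone aliases in their headers that could not be tied to a label.

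m6A is written during transcription, mainly by a complex built around METTL3, in which VIRMA is a large scaffold, and it is read by proteins such as YTHDF3, which directs modified mRNA towards decay. The genes of VIRMA and YTHDF3 both lie on the long arm of chromosome 8. SETD2 places the H3K36me3 mark on the bodies of transcribed genes, and the same mark has been linked to where the METTL3 complex acts. A peak count per chromosome depends on which RNAs are made as well as on which are modified, and a list of peaks does not separate these.

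The lists held 19249 to 39670 peaks. They give called peaks and no read counts, so the depth behind a peak is unknown and no counting interval can be given. For the same reason, peak numbers were set beside shares of each list. Peaks in SETD2 itself were called in all 16 lists, 4 to 11 per list, which says nothing about the knockout. The renal genes PAX8 and CDH2 had peaks in all 16 lists, CDH16 in 3, the leukocyte gene PTPRC and the endothelial gene PECAM1 in none, and the endothelial gene CDH5 in 4 RPTEC lists. These 4 were the SETD2-expressing lists of RPTEC, with 1 peak each, so CDH5 moved with the groups, and its part in the results was not tested.

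In 786-O, chromosome 8 took a larger share of the peaks in every SETD2KO list than in any SETD2-expressing list, and nearly the whole difference lay on the long arm, 8q. The 2 WT lists held 1141 and 1363 chromosome 8 peaks, 3.62% and 3.74% of their peaks. SETD2KO-1 held 1440 and 1539, or 4.40% and 4.33%, and SETD2KO-2 held 1675 and 1289, or 4.22% and 4.45%. In SETD2KO-1R the numbers were 1104 and 917, or 3.45% and 3.57%. The shares of the groups did not overlap, but the peak numbers did, with fewer chromosome 8 peaks in SETD2KO-2 replicate 2 than in WT replicate 2. The mean share was 4.35% ± 0.100 (SD, n = 4) with SETD2KO and 3.59% ± 0.123 (SD, n = 4) with SETD2, a difference of 0.756 percentage points, or 21.0% of the SETD2-expressing level. Only chromosome 9 rose by more (1.27 percentage points), while chromosome 19 fell by more (-0.902). Of the 23 chromosomes, 4 (17.4%) had a share that was higher in every SETD2KO list, and 4 had a lower one.

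The short and the long arm of chromosome 8 behaved differently in 786-O. On 8p the mean share was 0.998% ± 0.0580 (SD, n = 4) with SETD2KO and 0.969% ± 0.0475 (SD, n = 4) with SETD2, and the lists of the groups overlapped. On 8q it was 3.35% ± 0.126 (SD, n = 4) against 2.63% ± 0.0815 (SD, n = 4), with no overlap. On 8q the number of peaks also separated the groups, with 1015 to 1290 peaks in SETD2KO lists and 672 to 996 in SETD2-expressing lists.

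RPTEC differed in the same direction by a smaller amount, and the difference did not pass correction over the chromosomes. The WT lists held 1003 and 825 chromosome 8 peaks, 3.68% and 3.57% of the total. SETD2KO-1 held 951 and 1192, or 3.87% and 3.89%, and SETD2KO-2 held 986 and 766, or 3.75% and 3.98%. SETD2KO-1R held 1020 and 1043, or 3.50% and 3.34%. All 4 SETD2KO shares were above all 4 SETD2-expressing shares, while the numbers of peaks overlapped. The means were 3.87% ± 0.0933 (SD, n = 4) and 3.52% ± 0.142 (SD, n = 4), a difference of 0.350 percentage points or 9.94% of the SETD2-expressing level. The two-sided exact permutation test gave p = 0.0286, the smallest that 4 lists against 4 can give, and 0.110 after Benjamini-Hochberg adjustment over 23 chromosomes. In this design at least 14 chromosomes tied at the smallest p would be needed for any to pass an adjusted threshold of 0.05. The share was higher in every SETD2KO list for 3 of the 23 chromosomes (13.0%), namely chromosomes 2, 8 and X. The rises of chromosomes 2, 4 and X were larger than that of chromosome 8. Chromosomes 17 and 19 fell by more (-0.723 and -1.06 percentage points). For 3 chromosomes, 7, 17 and 19, the share was lower in every SETD2KO list. With the 50% of its peaks that scored highest kept in each list, the chromosome 8 difference was 0.202 percentage points, and with only the peaks in protein-coding genes 0.161. With genes that held at least 1 peak counted in place of peaks it was 0.144. Under each of these settings the groups overlapped. On 8q the RPTEC means were 2.42% ± 0.0608 (SD, n = 4) and 2.16% ± 0.0718 (SD, n = 4) with no overlap, and on 8p they were 1.45% ± 0.0501 (SD, n = 4) and 1.36% ± 0.0783 (SD, n = 4) with overlap.

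**Figure D1:**
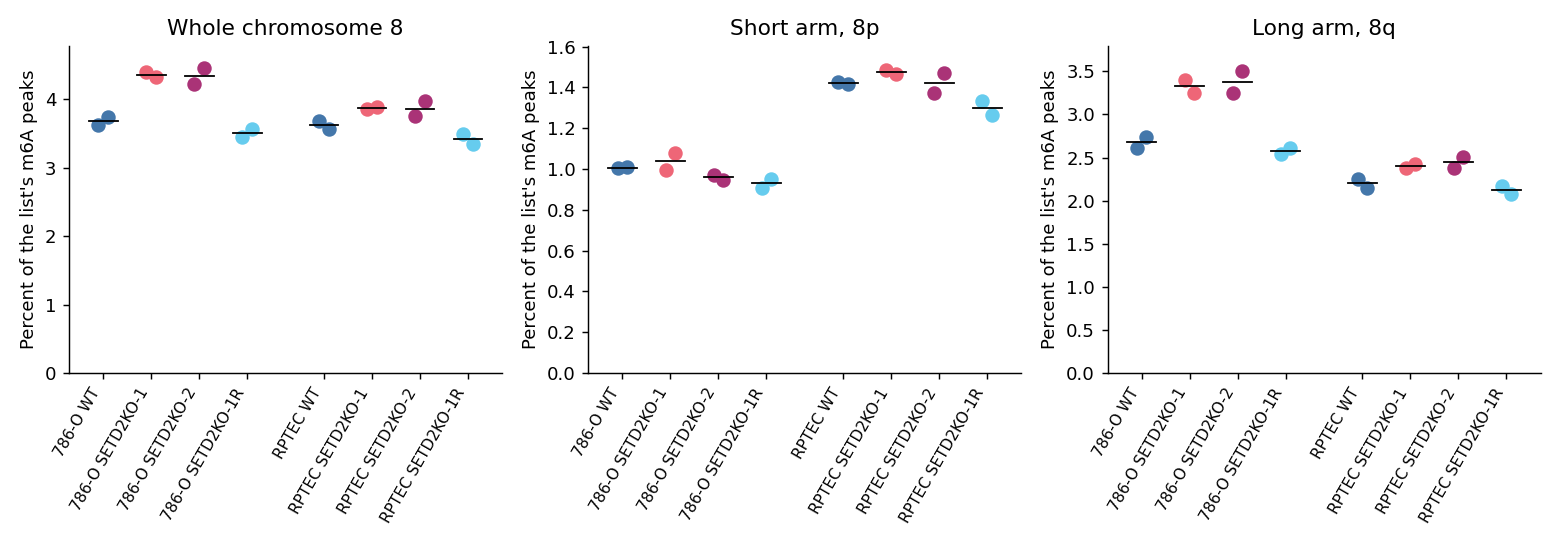
Percent of each list's m6A peaks that lie on chromosome 8 (left), on its short arm (middle) and on its long arm (right), for 2 lists (points) of each of 4 lines in 786-O and RPTEC, with the line mean as a bar. SETD2KO lists lie above the SETD2-expressing lists for the whole chromosome and for 8q in both cell lines, and overlap them on 8p.

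These tests take libraries as units, but SETD2 status differs between lines, each with 2 libraries, and nothing in the labels says that the libraries of a line came from separate cultures. The p-values therefore measure the spread between lists, which may be technical. The line means in 786-O were 3.68% for WT, 4.36% for SETD2KO-1, 4.34% for SETD2KO-2 and 3.51% for SETD2KO-1R. In RPTEC they were 3.62%, 3.88%, 3.87% and 3.42% in the same order, so that the rescued clone had the lowest share in both cell lines.

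Without the knockouts, the shares of chromosome 8 in the cell lines overlapped. The SETD2-expressing lists had 3.59% ± 0.123 (SD, n = 4) in 786-O and 3.52% ± 0.142 (SD, n = 4) in RPTEC, a difference of 0.0723 percentage points. The 786-O lists served to choose the chromosome, so this is given with no test.

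**Figure D2:**
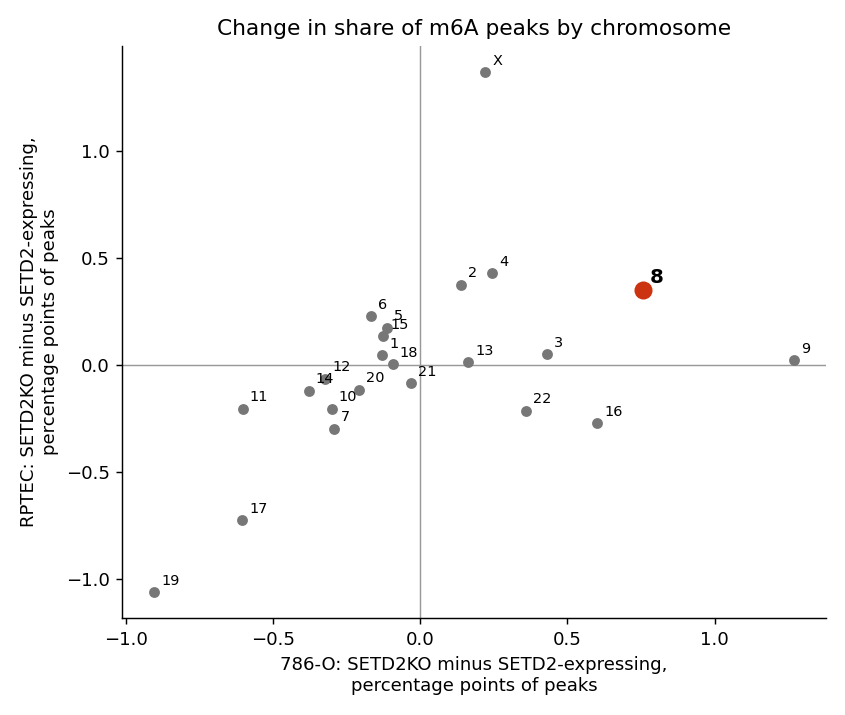
Mean share of peaks in 4 SETD2KO lists minus that in 4 SETD2-expressing lists, in percentage points, for chromosomes 1 to 22 and X in 786-O (horizontal) and RPTEC (vertical). Chromosome 8 (red) lies at 0.756 and 0.350, above zero in both cell lines, whereas chromosome 9 is far above zero on the horizontal axis and chromosome X on the vertical axis.

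Along the chromosome the 786-O difference was spread over 8q, and in the windows of 8p the groups overlapped. Of 15 windows of 10 Mb, 8 had a share that was higher in every SETD2KO list, all among the 10 windows beyond 50 Mb, on 8q, and 0 had a lower one. Over the genome 12.3% of windows with a peak were higher in this sense and 6.80% lower. In RPTEC 4 of the 15 windows were higher, at 10 to 20, 50 to 60, 80 to 90 and 100 to 110 Mb, and 0 were lower, against 12.3% higher and 4.53% lower over the genome. The 3 higher RPTEC windows on 8q were among the 8 of 786-O, and in the one on 8p the 786-O groups overlapped.

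The window from 80 to 90 Mb had the largest difference in share of all 15 in both cell lines. By number of peaks the window from 140 to 150 Mb differed by more in 786-O, with means of 304 and 244 against 100.5 and 47.5, but its groups overlapped. In 786-O the window from 80 to 90 Mb held 42 and 61 peaks in WT, 97 and 96 in SETD2KO-1, 107 and 102 in SETD2KO-2, and 44 and 43 in SETD2KO-1R. In RPTEC the numbers were 35 and 28, 70 and 64, 63 and 48, and 37 and 44. Every SETD2KO list held more peaks than any SETD2-expressing list in either cell line. As a share of the list, the window took 0.297% ± 0.0390 (SD, n = 4) with SETD2KO against 0.151% ± 0.0186 (SD, n = 4) with SETD2 in 786-O, a ratio of 1.96. In RPTEC it took 0.246% ± 0.0311 (SD, n = 4) against 0.129% ± 0.00838 (SD, n = 4), a ratio of 1.90.

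**Figure D3:**
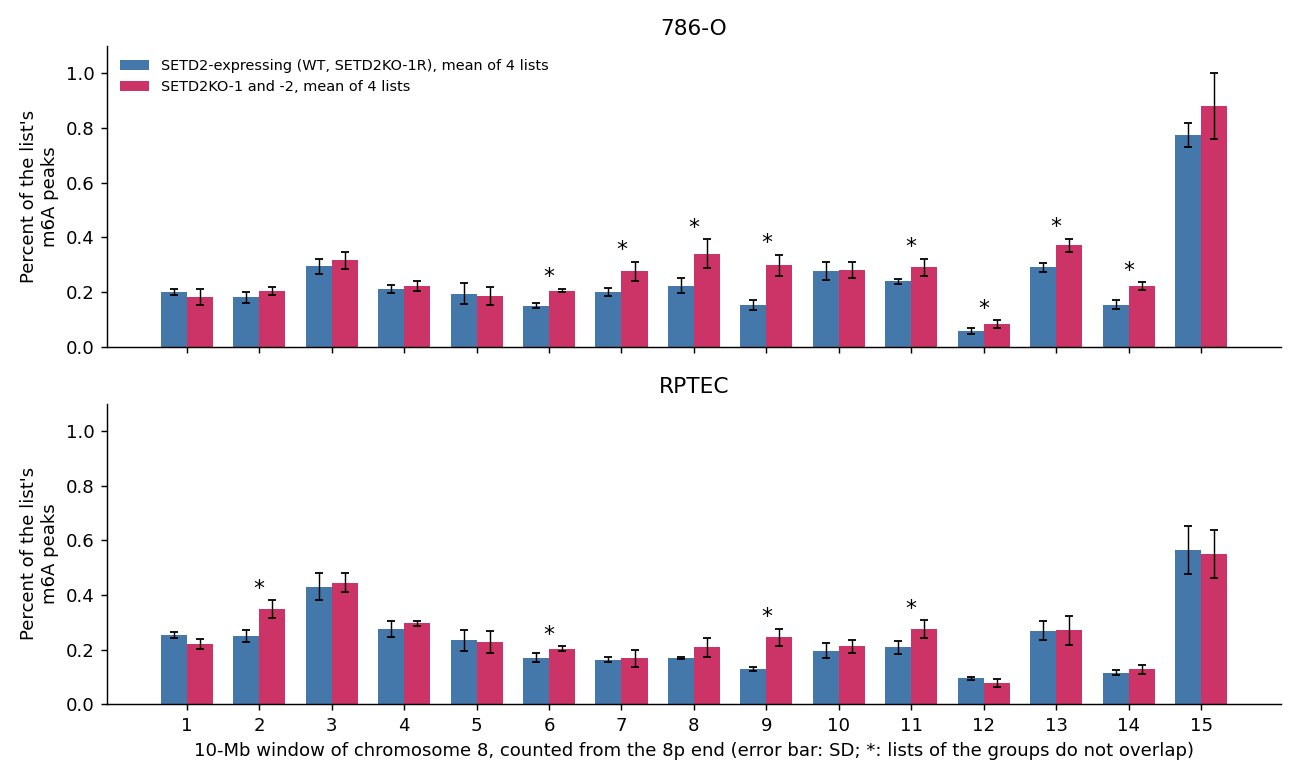
Percent of a list's m6A peaks in each 10-Mb window of chromosome 8, counted from the end of 8p, as the mean and SD over 4 SETD2-expressing lists (blue) and 4 SETD2KO lists (red) in 786-O (top) and RPTEC (bottom). Asterisks mark windows whose lists do not overlap between the groups; window 9, at 80 to 90 Mb, stands out in both cell lines.

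Most of that window's rise came from the 1 Mb between 89 and 90 Mb, and from peaks in no annotated gene. In 786-O this 1 Mb held 16 and 22 peaks in WT and 14 and 17 in SETD2KO-1R, but 44 and 46 in SETD2KO-1 and 51 and 54 in SETD2KO-2. The mean number was 48.75 ± 4.57 (SD, n = 4) against 17.25 ± 3.40 (SD, n = 4), 2.83 times as many, and the difference ranked 2 among 2445 windows of 1 Mb over the genome that held a peak. In RPTEC it held 18 and 12 peaks in WT, 16 and 17 in SETD2KO-1R, 35 and 33 in SETD2KO-1, and 31 and 32 in SETD2KO-2. The means were 32.75 ± 1.71 (SD, n = 4) and 15.75 ± 2.63 (SD, n = 4), 2.08 times as many, with rank 3 among 2428 windows. In the SETD2KO lists 33 to 39 of these peaks in 786-O and 22 to 26 in RPTEC lay in no gene, where the other lists had 8 to 13 and 5 to 9. The window was singled out after its values were seen, as the largest difference on the chromosome in 786-O. The two-sided exact permutation test in RPTEC gave p = 0.0286, again the smallest possible, and 0.453 adjusted over the 2428 windows. On chromosome 8 the number of peaks was higher in every SETD2KO list in 17 of 122 such windows (13.9%) in 786-O, where the genome had 5.60%, and in 9 of 120 (7.5%) in RPTEC, where the genome had 2.72%.

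Much of the stretch belongs to a gap between coding genes that begins before it and ends inside it. In hg38 the body of MMP16, which encodes a membrane-bound matrix metalloproteinase, ends at 88327483, and that of RIPK2, a kinase of the NOD receptor pathway, begins at 89757816. The 1430332 bp between them hold 10 annotated genes, none of them protein-coding. In this gap 786-O WT had 11 and 13 peaks and SETD2KO-1R had 9 and 10, but SETD2KO-1 had 37 in both lists and SETD2KO-2 had 39 and 46. RPTEC WT had 10 and 6 and SETD2KO-1R had 10 and 11, with 31 and 30 in SETD2KO-1 and 33 and 27 in SETD2KO-2. In both cell lines every SETD2KO list was above every other list across this gap. Of the coding genes to its right, NBN, a subunit of the MRE11 DNA break repair complex, had 1 or 2 peaks in all 16 lists. RIPK2 in 786-O had 1 and 2 peaks in WT, 1 and 3 in SETD2KO-1, 3 in both SETD2KO-2 lists, and 1 and 0 in SETD2KO-1R, with overlap and a mean difference of 1.5, and it holds a region, chr8:89788518-89789023, that all SETD2KO lists and no SETD2-expressing list of 786-O called. In RPTEC RIPK2 had 2 to 4 peaks and a mean difference of -0.750.

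A stretch on 8p with few coding genes also separated the groups widely in RPTEC. From 16 to 17 Mb, RPTEC WT had 0 peaks in both lists and SETD2KO-1R had 1 and 2, while SETD2KO-1 had 16 and 15 and SETD2KO-2 had 16 in both. This window was picked for its difference in RPTEC, so it is given with no test. In 786-O the numbers were 5 and 4 in WT, 6 and 11 in SETD2KO-1, 7 and 6 in SETD2KO-2, and 3 and 0 in SETD2KO-1R, so the groups did not overlap there either but lay close together. The window holds the whole of MSR1, which encodes a macrophage scavenger receptor, and part of FGF20, a growth factor gene that had a peak in no list. In RPTEC MSR1 itself had 1 and 3 peaks in SETD2KO-1, 3 and 0 in SETD2KO-2, and 0 in all SETD2-expressing lists, so the groups met at 0.

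**Figure D4:**
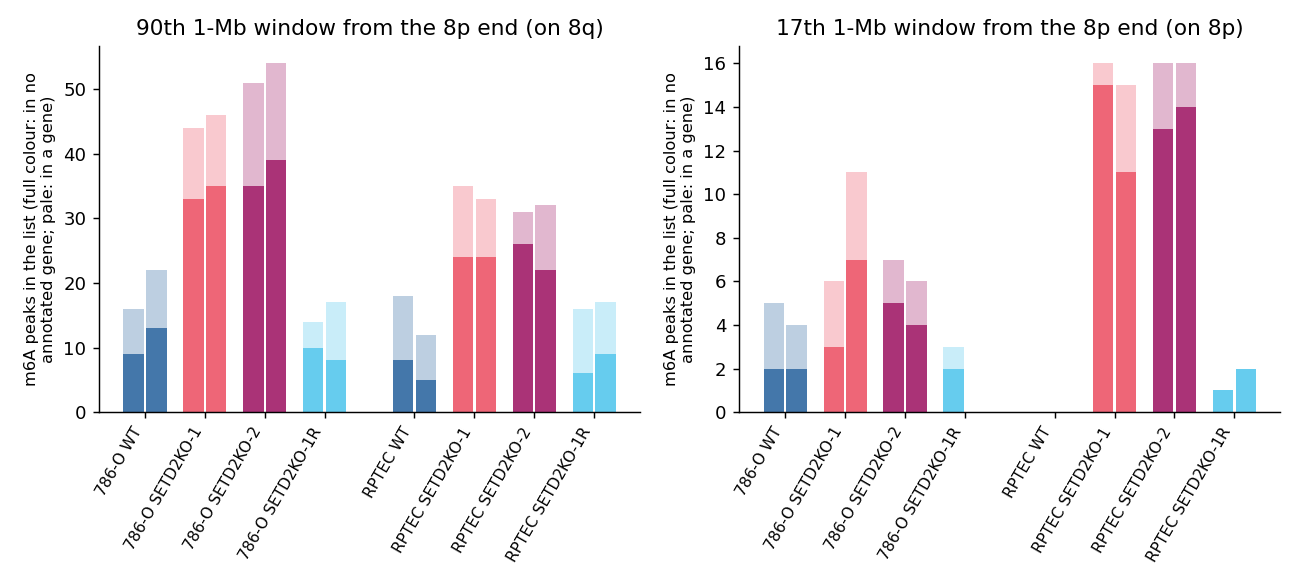
Number of m6A peaks per list in the 90th 1-Mb window of chromosome 8 (left, 89 to 90 Mb) and the 17th (right, 16 to 17 Mb); each bar is 1 list, full colour marks peaks in no annotated gene and pale colour those in a gene. At 89 to 90 Mb the SETD2KO lists hold 44 to 54 peaks in 786-O and 31 to 35 in RPTEC, and the other lists hold 12 to 22.

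The difference in chromosome 8 share was divided differently between genes and the space outside them in the 2 cell lines. In RPTEC it was a difference of share and not of number, with a mean of 973.75 ± 175 (SD, n = 4) chromosome 8 peaks with SETD2KO and 972.75 ± 99.9 (SD, n = 4) with SETD2. In 786-O, 47.8% of the difference in share was in protein-coding genes, 19.9% in other genes alone and 32.3% in no gene. In RPTEC these parts were 2.87%, 37.8% and 59.4%. The share of all peaks that fell in coding genes of chromosome 8 was 3.32% ± 0.0592 (SD, n = 4) against 2.96% ± 0.159 (SD, n = 4) in 786-O, without overlap, and 3.10% ± 0.126 (SD, n = 4) against 3.09% ± 0.120 (SD, n = 4) in RPTEC, with overlap. Among chromosome 8 peaks themselves, 12.3% ± 1.36 (SD, n = 4) lay in no gene with SETD2KO and 8.14% ± 1.87 (SD, n = 4) with SETD2 in 786-O, the difference ranking 2 among 23 chromosomes. In RPTEC the values were 10.2% ± 1.21 (SD, n = 4) and 5.27% ± 0.361 (SD, n = 4), ranking 1. Chromosome 8 was not alone in this, since the percentage was higher in every SETD2KO list on 6 chromosomes in 786-O and on 14 in RPTEC.

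Length and score set the chromosome 8 peaks of the groups apart much less. The median length was 390 to 436 bp in the SETD2KO lists of 786-O and 376 to 429.5 bp in the others, with overlap in RPTEC as well. By score, the median chromosome 8 peak stood at percentile 46.2 to 51.1 of its own list across RPTEC and 47.1 to 49.4 across 786-O, with overlap between the groups in both.

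Of the 715 protein-coding genes annotated on chromosome 8, 429 held a peak in at least 1 list of 786-O and 434 in RPTEC, a peak being assigned to each gene whose body holds its midpoint. In 786-O, 14 of the 429 (3.26%) had more peaks in every SETD2KO than in every SETD2-expressing list, and 0 had fewer, while over all coding genes with a peak 1.55% had more and 0.886% fewer. Of the 14, 12 lie on 8q, which holds 289 of the 429 genes with a peak. In RPTEC 5 of the 434 (1.15%) had more and 7 (1.61%) had fewer, next to 1.02% and 1.44% over all genes. The median difference in peak number over genes with a peak was 0.250 in 786-O and 0 in RPTEC, next to 0 and -0.250 over all genes. No gene was on both lists of genes with more peaks. With the 50% of its peaks that scored highest kept in each list, 3 genes were higher in 786-O, 2 of them among the 14, and 3 were higher and 3 lower in RPTEC.

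The 786-O gene with the largest rise was XKR9, a member of the family of phospholipid scramblases, at 70669339 to 71065805. It had 0 and 1 peaks in WT, 11 and 16 in SETD2KO-1, 13 and 19 in SETD2KO-2, and 9 and 3 in SETD2KO-1R. The groups did not overlap, with replicate 1 of the rescued clone closest to the knockouts. RPTEC had no peak in XKR9 in any list. TRAPPC9, a subunit of a vesicle tethering complex, came next with 8 and 13 in WT, 17 and 22 in SETD2KO-1, 18 and 11 in SETD2KO-2 and 11 and 7 in SETD2KO-1R, where the groups overlapped. It was also the largest rise in RPTEC, with 5 and 4, 7 and 8, 10 and 7, and 7 and 5 peaks in the same order, again with SETD2KO lists tied with a rescue list. SPIDR, a scaffold in homologous recombination, differed by 6 peaks on average in 786-O and by 0.5 in RPTEC, with overlap in both.

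STK3, TSNARE1, ARHGAP39 and BAALC were among the genes that followed, and in these 4 the 786-O groups did not overlap. STK3, the MST2 kinase of the Hippo pathway, had 8 peaks in both WT lists, 10 in both SETD2KO-1 lists, 11 and 10 in SETD2KO-2, and 5 and 6 in SETD2KO-1R. TSNARE1, which carries a SNARE domain, had 6 in both WT lists, 10 in both SETD2KO-1 lists, 11 and 8 in SETD2KO-2, and 6 and 3 in SETD2KO-1R. ARHGAP39, a GTPase-activating protein, had 6 or 7 peaks in SETD2KO lists and 1 to 5 in the others. BAALC, known from acute leukaemia, had 3 or 4 in SETD2KO lists and 0 or 1 elsewhere. Over all lists, 9 of its peaks also fall in BAALC-AS1 and the rest do not, and the lists have no strand. In RPTEC the mean difference was -1 for STK3, 0.250 for TSNARE1 and -1.75 for ARHGAP39, and BAALC had no peak.

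The remaining rises by rule overlapped between the groups. ASPH, a hydroxylase of the endoplasmic reticulum, differed by 4.25 peaks, the syntrophin gene SNTG1 by 3.75, and the transcriptional repressor ZHX2 and EFR3A, which anchors a lipid kinase at the plasma membrane, by 3.5 each. The genes just outside, LOXL2 and PTK2, had differences of 3.25, as did BAALC just inside. All 12 genes with the largest rise lie on 8q, as do 289 of the 429 chromosome 8 genes with a peak in 786-O. LOXL2, which tied with BAALC and was left out because its groups overlapped, lies on 8p. In RPTEC 5 of the 12 had a positive difference, 4 a negative one and 3 none, from -4 for ZHX2 to 2.75 for TRAPPC9, and 0 of the 12 separated the groups there. Of all chromosome 8 genes with a peak in RPTEC, 34.6% had a positive difference and 49.5% a negative one.

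The falls in 786-O were smaller and all 8 of the named ones overlapped between the groups. MATN2, a matrix protein gene, had 0 and 2 peaks in WT, 2 and 0 in SETD2KO-1, 1 in both SETD2KO-2 lists, and 10 and 6 in SETD2KO-1R, so that its high lists were those of the rescued clone. PSD3, an exchange factor for ARF6, had 13 and 11, 4 and 8, 10 and 4, and 7 and 9. PRKDC, the catalytic subunit of DNA-dependent protein kinase, had 14 and 11, 9 and 5, 10 and 5, and 5 and 9 in the same order, with a difference of -2.5 in 786-O and -2 in RPTEC. The other 5, FBXO25, ADAM9, SLC20A2, ARHGEF10 and ZNF517, differed by -1.75 to -1.25. In RPTEC 4 of the 8 had a negative difference, 2 a positive one and 2 none, beside 49.5% negative and 34.6% positive over all chromosome 8 genes with a peak there. FBXO25, an F-box protein gene, alone of the 8 separated the groups there, with 2 peaks in both WT lists, 0 and 1 in SETD2KO-1, 0 in both SETD2KO-2 lists, and 5 and 2 in SETD2KO-1R.

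In RPTEC the larger changes were falls. ASAP1, a GTPase-activating protein for ARF proteins, had the largest, with 13 and 16 peaks in WT, 10 and 15 in SETD2KO-1, 9 and 11 in SETD2KO-2, and 16 and 24 in SETD2KO-1R, and the groups overlapped. ZFHX4, a zinc finger homeobox gene, had 17 and 13, 13 and 8, 9 and 7, and 15 and 14, separated but for a tie at 13. EXT1, a heparan sulfate polymerase, had 9 and 10, 6 and 7, 6 and 4, and 10 and 12, without overlap. PLEKHA2, an adaptor that binds phosphoinositides, had 7 and 6, 2 and 5, 1 and 2, and 8 and 7, also without overlap. EPPK1, which encodes epiplakin, had 0 peaks in WT and 8 and 9 in SETD2KO-1R, so that only the rescued clone was high. The RPTEC rises were TRAPPC9, the adaptor PAG1, the oligosaccharyltransferase subunit TUSC3, the Argonaute gene AGO2, the scavenger receptor gene SCARA3 and the procollagen protease BMP1, by 2.25 to 2.75 peaks. PAG1 alone of these had no overlap, with 2 in both WT lists, 4 and 5, 4 and 3, and 1 in both SETD2KO-1R lists. All 6 of these genes had a positive difference in 786-O as well, from 0.750 to 7.25 peaks, as did 59.0% of all chromosome 8 genes with a peak there. MSRA tied with BMP1 at 2.25 in RPTEC and was left out for its lower mean over all lists. It had no peak in 786-O.

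**Figure D5:**
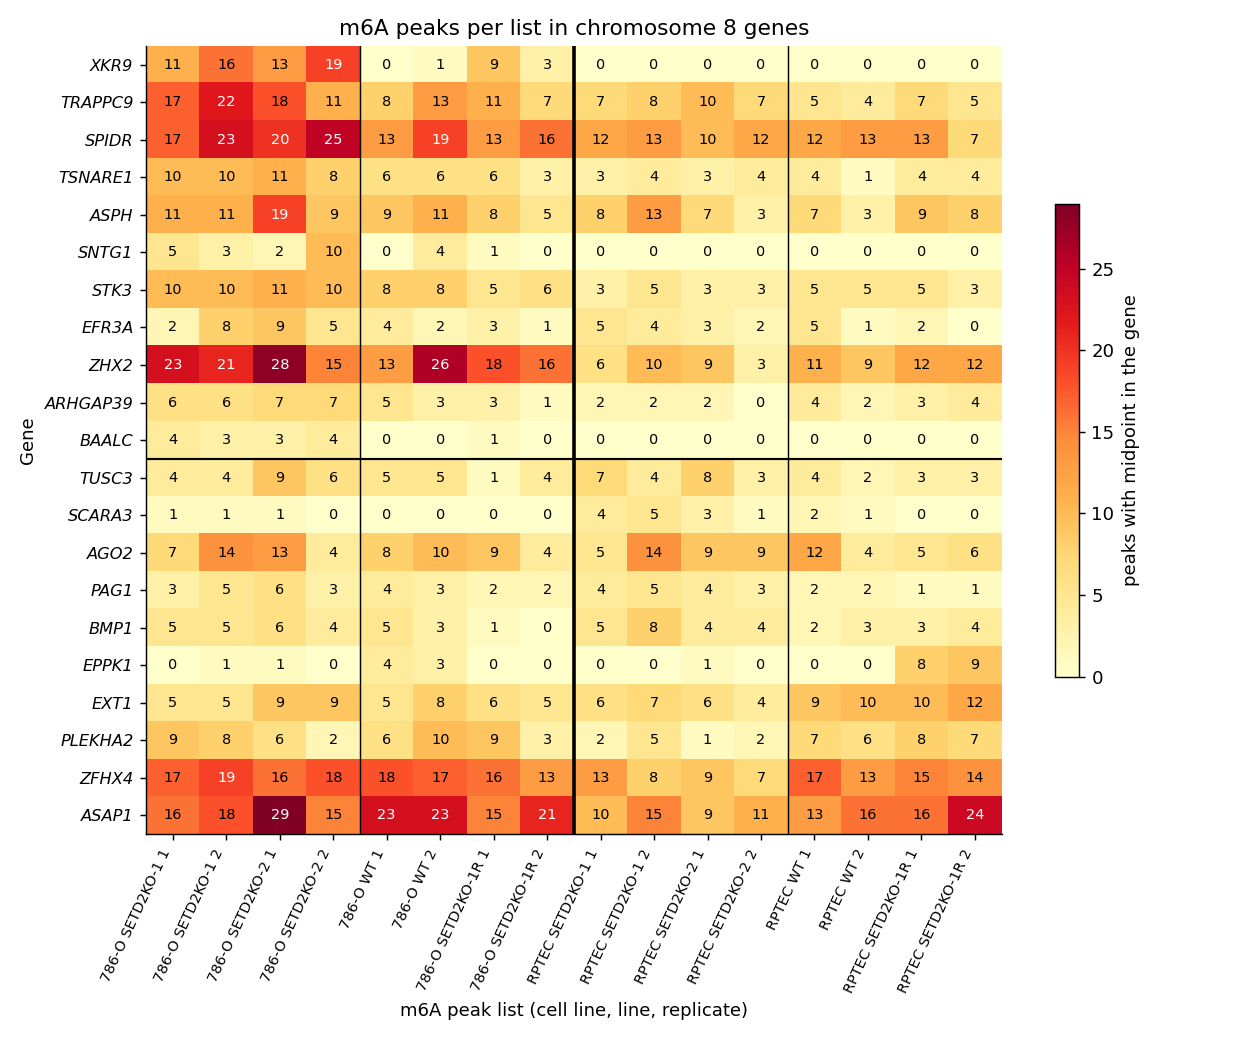
Number of m6A peaks per list in the chromosome 8 genes with the largest rise in 786-O (above the horizontal line, 11 of 12 genes) and with the largest rise or fall in RPTEC (below it, 10 further genes); columns are the 16 lists, 786-O left of the thick line, with SETD2KO lists left of each thin line. XKR9 and BAALC are high in SETD2KO lists of 786-O and have no peak in RPTEC, and ASAP1, ZFHX4, EXT1 and PLEKHA2 are lower on average in SETD2KO lists of RPTEC.

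Of the genes for m6A proteins on chromosome 8, neither separated the groups. YTHDF3 had 4 and 5 peaks in WT, 4 and 5 in SETD2KO-1, 4 and 3 in SETD2KO-2, and 4 and 3 in SETD2KO-1R of 786-O, and 2 to 6 in RPTEC. VIRMA had 4 to 9 peaks in 786-O and 2 to 6 in RPTEC, with mean differences of -0.750 and -1.75. LY96, the co-receptor of TLR4 for lipopolysaccharide, had 3 and 4 peaks in SETD2KO-1, 3 in both SETD2KO-2 lists, 0 in both WT lists and 1 and 0 in SETD2KO-1R of 786-O, and none in RPTEC. DECR1, a mitochondrial enzyme of unsaturated fatty acid oxidation, had 3 to 5 peaks in all 786-O lists with overlap, and 2 to 7 in RPTEC.

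By function, few of the chromosome 8 genes on the lists drawn up by role separated the groups, and their counts stand beside 3.26% of chromosome 8 genes and 1.55% of all coding genes higher in 786-O. Among 25 genes for receptors, secreted and matrix proteins, 17 had a peak in 786-O and 2 were higher in every SETD2KO list, LY96 and the matricellular gene CCN3, and 0 were lower. Among 18 genes for kinases and signalling, 16 had a peak and 1 was higher, STK3. For mitochondrial and metabolic enzymes (23 of 25 with a peak), DNA replication and repair (19 of 20), transcription and chromatin (18 of 19) and translation and RNA binding (13 of 13), 0 were higher and 0 lower. The median difference over these 6 lists ran from 0 for DNA replication and repair to 0.750 for transcription and chromatin, beside 0.250 over the 429 genes of the chromosome. In RPTEC 1 gene for transcription and chromatin, ZFPM2, and 1 for receptors and matrix, TNFRSF11B, were higher, and ESCO2 and EXT1 were lower, where 1.15% of chromosome 8 genes were higher and 1.61% lower. Most of the peaks in ZFPM2 also fall in ZFPM2-AS1, and without strand they cannot be assigned to either.

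Genes outside the naming rule that separated the groups are named from their values. In 786-O these were AP3M2, CCN3, CLDN23, DNAAF11, MAL2, NSMCE2 and ZNF704. NSMCE2, a SUMO ligase of the SMC5/6 complex, had 10 to 12 peaks in SETD2KO lists and 6 to 9 in the others. MAL2, a protein of apical transport in epithelia, had 4 and 3, and 2 in both SETD2KO-2 lists, with 0 in all SETD2-expressing lists of 786-O. In RPTEC MAL2 had 3 and 2 peaks in WT, 0 in all SETD2KO lists, and 1 and 0 in SETD2KO-1R, so its peaks were on the other side of the contrast, with a tie at 0. MAL2-AS1 shares most of its peaks. In RPTEC TNFRSF11B, which encodes osteoprotegerin, had 1 peak in each SETD2KO list and 0 in each other list, and the cohesin acetyltransferase gene ESCO2 and the mitotic kinase gene PBK, which overlap and share peaks, were lower in every SETD2KO list.

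The peaks of 8 lists were also merged into regions where they overlapped. In 786-O 3143 of 78765 regions (3.99%) lay on chromosome 8, and 27 of these were called by each of the 4 SETD2KO lists and by no SETD2-expressing list, where 0.476% of all regions were. They made up 7.20% of all 375 such regions, and 23 of the 27 lay on 8q. Of the chromosome 8 peaks in those SETD2KO lists, a mean of 1143.5 of 1485.75 lay on 8q. Regions of the opposite kind numbered 2, in PSD3 and in NTAQ1, a glutamine amidase gene, where 0.147% of all regions met that rule. In RPTEC 2562 of 68294 regions (3.75%) lay on chromosome 8, with 14 in SETD2KO lists alone (7.78% of 180) and 5 in SETD2-expressing lists alone, beside 0.264% and 0.212% of all regions. With the same number of peaks per list the SETD2KO regions numbered 10 in 786-O and 7 in RPTEC, and with the 50% of highest score 10 and 6.

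Of the 27 regions in 786-O, 12 lay in no gene and 10 in coding genes, and of the 14 in RPTEC, 9 and 4. Of all chromosome 8 peaks in SETD2KO lists, a mean of 76.3% in 786-O and 80.0% in RPTEC lay in coding genes. The stretch at 89 to 90 Mb held 5 of the 27 and 3 of the 14, and the stretch at 16 to 17 Mb held 6 of the 14. The highest-ranked 786-O region by score, chr8:89239545-89239947, also met that rule in RPTEC, and so was chr8:124242040-124243828 in LOC101927588. The second highest in 786-O lay in ZNF704, at chr8:80873619-80874054, and was called in 1 SETD2KO and no other list of RPTEC. The highest-ranked RPTEC region lay in TNFRSF11B, at chr8:118924321-118925007, and was called in no 786-O list.

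The regions found in one cell line were then looked up in the other. The 27 SETD2KO regions of 786-O were called 33 times over the 4 SETD2KO lists of RPTEC and 11 times over its 4 SETD2-expressing lists. By list these were 4 and 2 in WT, 9 in both SETD2KO-1 lists, 8 and 7 in SETD2KO-2, and 1 and 4 in SETD2KO-1R, so every SETD2KO list of RPTEC called more of them than any other. Of the 27, 12 were called in more SETD2KO lists, 1 in more SETD2-expressing lists, 2 equally often and 12 in no RPTEC list. In the other direction, the 14 SETD2KO regions of RPTEC were called in 786-O by 8 in each SETD2KO-1 list, 8 and 6 in SETD2KO-2, 2 in each WT list, and 2 and 0 in SETD2KO-1R. The stretch at 89 to 90 Mb contributes to both sets. The regions of other chromosomes were not looked up in this way, so whether the same holds beyond chromosome 8 is not known.

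Over all 16 lists the peaks of chromosome 8 merged into 3916 regions, of which 1619 were called in both cell lines, 1483 in 786-O alone and 814 in RPTEC alone. 145 regions were called in all 16 lists, 91 of them on 8q, and 1474 in 1 list. In SETD2-expressing lists, a mean of 826.25 of 1131.25 chromosome 8 peaks in 786-O and 598 of 972.75 in RPTEC lay on 8q.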

How the data were processed

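Per the labels, 16 IP libraries of 786-O and RPTEC each have 1 deposited list of m6A peaks; the 16 Input libraries have no list used here. For each library, the authors mapped reads to hg38 by STAR, quantified them by HTSeq, normalized to RNA of E. coli spiked into the samples, and used MACS2 to find peaks enriched in IP over Input. The deposited score of each peak is a whole number whose scale is not given in the sources used here, so it was used for the order of peaks inside each list and nothing else; the deposited lists carry no strand. Libraries were grouped by the titles in the labels.

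A list's share is its chromosome 8 peaks over all its peaks. Peak midpoints were assigned to gene bodies of the RefSeq table of GRCh38.p14, which gives no exons here. The arms were divided at 45 Mb. Peaks that overlap by at least 1 bp were merged into regions per cell line. Groups of lists were compared by two-sided exact permutation tests of the difference of means over 70 arrangements, with Benjamini-Hochberg adjustment over chromosomes 1 to 22 and X, or over all 1-Mb windows with a peak. No read counts are given, so the DESeq2 comparison that the authors ran was not repeated. Genes were named by the largest change in mean peak number per list (12 rises and 8 falls in 786-O, 6 and 6 in RPTEC), besides LY96, DECR1, YTHDF3 and VIRMA and the members of 7 lists by function. Ties were ordered by whether the groups overlapped, then by the higher mean over all lists. The chromosome, gene lists and tests were chosen with earlier results of these data known. The alternatives were other peak subsets, measures, controls, clones, a replicate block and each list left out. Values of some named or marker genes are not reported here. The steps were tested on simulated data. Scripts ran in Python 3.11.15 with pandas 2.3.3, NumPy 2.4.6 and Matplotlib 3.10.9.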

Additional observations from a re-analysis of the deposited data

Results flagged for a closer look

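Of 76 groups of 4 lists checked for a list far from the other 3 in share of peaks (whole chromosome, arms and 10-Mb windows) or in peak number at 89 to 90 Mb, 4 held one, and chance flags about 5% of such groups. In 786-O, SETD2KO-2 replicate 2 had 0.3283% of its peaks at 60 to 70 Mb, above 0.2496% to 0.2616% in the other SETD2KO lists. In RPTEC, SETD2KO-2 replicate 1 had 1.374% of its peaks on 8p, below 1.467% to 1.483% in the other SETD2KO lists. RPTEC SETD2KO-1 replicate 2 had 0.2483% at 0 to 10 Mb, above 0.2094% to 0.213% in the others of its group. RPTEC WT replicate 1 had 0.1799% at 60 to 70 Mb, above 0.157% to 0.160% in the other SETD2-expressing lists.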

How the results depend on the processing

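The 786-O difference in chromosome 8 share (0.756 percentage points) stayed above zero, with no overlap between the groups, under all 12 alternatives and with each list left out (0.707 to 0.806). It was 0.622 with the same number of peaks per list, 0.547 with only peaks in protein-coding genes, 0.297 when genes with a peak were counted in place of peaks, and, in an alternative chosen after seeing the data, 0.896 with chromosomes 9 and X left out of the totals. Without the 89 to 90 Mb window, also chosen after seeing the data, it was 0.671, and the RPTEC difference was 0.277. The RPTEC difference (0.350) stayed above zero under 13 alternatives (0.144 to 0.439) and with each list left out (0.290 to 0.403), never passing the adjusted threshold (adjusted exact permutation p 0.0821 to 0.329). The RPTEC groups did not overlap in 10 of the 13. They overlapped with the 50% of peaks of highest score, with peaks in coding genes and for genes with a peak. The difference between SETD2-expressing 786-O and RPTEC (0.0723) turned to -0.0118 with the 50% of peaks of highest score, -0.0148 with peaks in coding genes and -0.0857 for genes with a peak; the cause was not tested. With each list left out it was 0.0121 to 0.126.

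With numbers permuted within a replicate block, the RPTEC difference of 0.350 had an exact p of 0.0556, the smallest that block allows, and an adjusted p of 0.213. The labels give the lines replicate numbers in common and do not say whether these mark a batch. Between lines, deviations of the chromosome shares correlated from -0.224 to 0.728 in 786-O and from -0.778 to 0.376 in RPTEC. The correlation was positive in 5 of the 6 pairs of 786-O lines and in at least 3 of 6 in RPTEC. Whether replicates of the same number share a batch was not tested.

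Genes higher in 786-O (14) numbered 3 with the 50% of peaks of highest score, 2 of them shared; with the same number of peaks per list 11 were higher (7 of them shared) and 1 lower. RPTEC counts with the 50% of peaks were 3 higher and 3 lower. With the same number of peaks per list they were 6 higher (2 of them shared) and 3 lower. SETD2KO regions numbered 10 under both settings in 786-O, and 6 and 7 in RPTEC; regions of the opposite kind numbered 1 in 786-O with the 50% of peaks, and 1 in RPTEC under both. Leaving out a list makes the rule easier to meet. Genes higher then numbered 15 to 25 in 786-O (most without WT replicate 2) and 5 to 21 in RPTEC (most without SETD2KO-2 replicate 2), and genes lower 0 to 3 (most without SETD2KO-2 replicate 2) and 7 to 15 (most without WT replicate 2). SETD2KO regions numbered 33 to 47 (most without SETD2KO-2 replicate 1) and 14 to 29 (most without replicate 2 of SETD2KO-1 or SETD2KO-2), and the opposite kind 2 to 7 (most without SETD2KO-1R replicate 2) and 5 to 12 (most without WT replicate 2). The excess at 89 to 90 Mb, tried after seeing the data, was 10.25 to 35.25 peaks in 786-O and 7.75 to 18.25 in RPTEC over 6 settings, with no overlap in any.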
